A study of Mus musculus with 12 samples.

Results

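The Cd209 genes encode C-type lectins of the DC-SIGN family, and 6 of them (Cd209a, Cd209b, Cd209d, Cd209e, Cd209f and Cd209g) were followed here in all 12 libraries of the series. They were chosen by measured values: Cd209g and Cd209f had among the largest falls of all genes in bone marrow-derived macrophages after ovariectomy. The comparison of OVX with sham macrophages therefore describes them and does not test them. The 6 genes are rows of both count tables, out of 55487 genes, and all lie on mouse chromosome 8. Only Cd209f and Cd209g had more than 3 counts in any library. In CPM, counts per 1000000 counts of the library after TMM scaling, Cd209f stood at 29.7 ± 8.63 (SD, n = 2) in sham and at 1.29 ± 0.151 (SD, n = 3) in OVX macrophages. Cd209g stood at 16.3 ± 3.58 in sham and at 0.659 ± 0.105 in OVX.

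DC-SIGN lectins are type II membrane proteins of dendritic cells and macrophages. A carbohydrate recognition domain at their outer end binds mannose- and fucose-bearing glycans on microbes and on host glycoproteins, for uptake and for signals that adjust cytokine output. The mouse carries an expanded family where humans carry few genes, and its members are best known from dendritic cells (Cd209a, which bears the DC-SIGN name in mouse) and from the macrophages of the splenic marginal zone and lymph nodes (Cd209b, also SIGNR1, which takes up dextran and bacterial polysaccharides). Cd209d and Cd209e are also named SIGNR3 and SIGNR4, and Cd209f and Cd209g are SIGNR8 and SIGNR7, whose roles are much less described.

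The macrophages and MSCs came from C57BL/6 mice, given as 8 weeks of age, and no genetic change is named for any group. Bone marrow-derived macrophages (BMMs) from ovariectomized (OVX) or sham-operated female mice, the osteoporosis model of the study and its control, were grown with M-CSF at 50 ng/mL for 72 h and gave 3 libraries each. Bone marrow mesenchymal stem cells (MSCs) at passage 3 gave 2 libraries for each of 3 cultures. They grew alone (MSC), in transwells shared with resting RAW264.7, an established mouse macrophage line of BALB/c origin (MSC+RAW-TW), or in transwells with RAW264.7 exposed to LPS, a bacterial activator of macrophages (MSC+RAW-LPS-TW). Replicate numbers of the transwell groups are those of the count columns. These are 2 and 3 for MSC+RAW-LPS-TW and the same number for both MSC+RAW-TW libraries, and the sample titles number them otherwise. The labels do not say whether libraries came from separate animals or cultures, so the spread between samples may be technical.

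Library totals ran from 17012923 to 45367105 counts, so that a count of 3 in a library, the floor used here, stood for 0.0661 to 0.176 CPM. Sham libraries 2 and 3 differed by only 2.50 to 2.81 times counting noise at low and high counts, where other BMM pairs of one group reached 30.6 to 121 times at high counts. They were summed and counted as 1 sample, as were both MSC+RAW-TW libraries, which leaves that group with levels and no test. Macrophage genes were abundant in the MSC libraries, against their label: the summed level of 10 macrophage markers was 26097 to 26217 CPM in MSC, 34257 CPM in MSC+RAW-TW and 13158 to 14210 CPM in MSC+RAW-LPS-TW samples, with none of the 10 at 0. The 12 stromal markers summed to 4537 to 4613, 4759 and 5702 to 5725 CPM in the same groups. In sham and OVX samples the macrophage markers summed to 55218 to 59579 and 40577 to 45146 CPM, and the stromal markers to 9282 to 10037 and 9318 to 10032 CPM. Stromal genes were thus abundant in the BMM libraries too, and both sums were higher there than in any MSC sample, though the experiments were scaled separately.

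The sequences of Cd209f and Cd209g are shown first because they bear on how far the counts of the pair can be told apart. Both genes have 8 exons in their longest protein-coding transcript (Cd209f-203 and Cd209g-201, GENCODE annotation of GRCm38), and exons 2 to 7 have equal lengths. Exons 3 to 6, 392 bases in all, were identical base for base, exon 1 was 98.5% and exon 2 98.8% identical. The longest run shared by the transcripts was 416 bases. Exon 7, a coding exon of the carbohydrate recognition domain, was the most divergent at 74.3%, with 29 of its 113 bases different, and exon 8 was 84.8% identical. The exon 7 sequences below lie at chr8:4103622-4103734 on the minus strand for Cd209f and at chr8:4136787-4136899 on the plus strand for Cd209g (GRCm38), written 5′ to 3′ with the bases that differ in capitals.
Cd209f exon 7: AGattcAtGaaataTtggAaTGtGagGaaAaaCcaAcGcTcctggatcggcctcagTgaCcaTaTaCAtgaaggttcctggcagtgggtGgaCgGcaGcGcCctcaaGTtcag
Cd209g exon 7: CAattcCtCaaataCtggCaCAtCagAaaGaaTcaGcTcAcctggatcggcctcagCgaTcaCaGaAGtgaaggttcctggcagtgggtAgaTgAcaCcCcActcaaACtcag

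**Figure D1:**
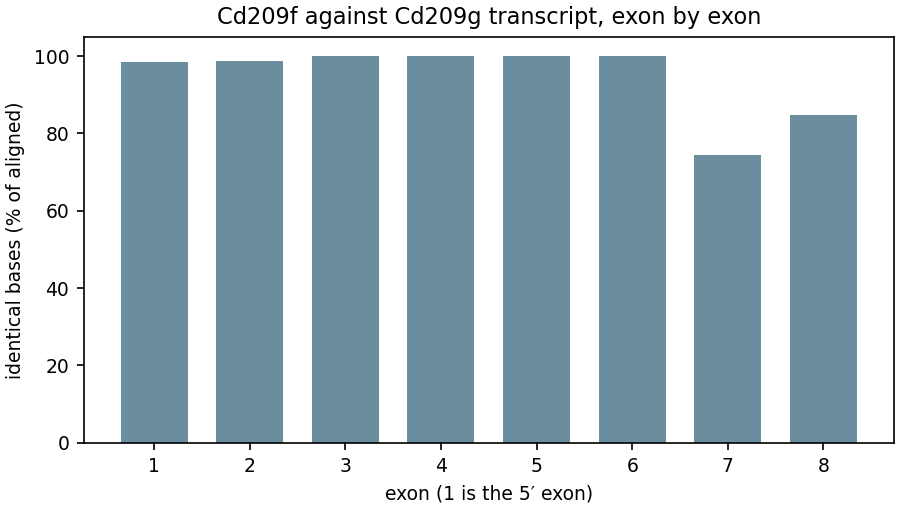
Identity of the Cd209f and Cd209g transcripts by exon, as the percent of aligned bases that are identical (bars), from the 5′ exon on the left. Exons 3 to 6 are at 100%, and exon 7 is lowest at 74.3%.

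Aligned over their length, the transcripts of Cd209f and Cd209g were 91.5% identical, against 61.1% to 80.3% in the other 20 pairs among the 7 Cd209 genes, whose longest shared runs were 10 to 26 bases. Of all 150-base windows, the length of 1 read, 25.7% of those in Cd209f-203 were found whole in Cd209g-201 and 26.2% the other way. At 31 bases the shares were 42.5% and 43.0%, and no 31-base window of either gene was found in a transcript of any other gene. A read that falls wholly in such a window fits both genes, and how the counting dealt with reads that fit more than 1 place is not given in the sources used here. The counts of Cd209f and Cd209g are therefore uncertain as single values, and are also given summed below.

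The annotated coding part differs more than the transcripts do. It starts in exon 1 of Cd209f-203 and runs for 765 bases, but starts in exon 3 of Cd209g-201 and runs for 582 bases. At the first base of the Cd209f start codon the Cd209g transcript differs by A1G, counted from 1 at that base with the Cd209f base first. Exon 7 is coding in both.

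The likeness reaches into the promoters. In the RefSeq windows from 250 bases before to 50 bases after the start (GRCm38.p6), Cd209f and Cd209g shared an unbroken run of 180 bases, which 2 of 32851 promoters held, while the other 20 pairs of Cd209 promoters shared runs of 7 to 17 bases. The stretches below end just before the first base of Cd209f-203 (chr8:4105836-4106014, minus strand) and of Cd209g-201 (chr8:4134486-4134651, plus strand). The capitals mark the part of that run they hold, 83 bases in Cd209f and 84 in Cd209g. The rest of the run, which is the larger part, lies inside the first exon of these transcripts, already compared above.
Cd209f: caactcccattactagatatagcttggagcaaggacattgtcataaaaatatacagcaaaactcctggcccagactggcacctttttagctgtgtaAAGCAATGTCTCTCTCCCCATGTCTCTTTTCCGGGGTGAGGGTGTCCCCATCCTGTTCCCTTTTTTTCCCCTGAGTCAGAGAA
Cd209g: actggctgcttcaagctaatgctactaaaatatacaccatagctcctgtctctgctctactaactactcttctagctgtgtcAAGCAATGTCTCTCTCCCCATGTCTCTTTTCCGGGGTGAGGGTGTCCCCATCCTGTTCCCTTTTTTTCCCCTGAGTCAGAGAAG

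Of the motifs searched on both strands, TGANTCA (AP-1) had 1 match in each of these promoters, 83 bases before the RefSeq start in Cd209f and 97 before it in Cd209g, inside the shared run. It was in none of the other 5 Cd209 promoters and in 7.81% of all promoters. TATAAA (the TATA box motif) matched at 29 and 43 bases before the RefSeq start of Cd209f and Cd209g, which is inside exon 1 of Cd209f-203 and Cd209g-201. It also matched once in Cd209a, on the other strand 184 bases before the start, against 13.6% of all promoters. GAGGAA (PU.1 and ETS, 28.3% of all promoters) matched in Cd209d alone of the 7, and TTCNNNNGAA (STAT6, 6.95%) in Cd209e alone. GAAANNGAAA (interferon response, 3.44%), TGCTGAC (MAF, 4.67%) and GGTCANNNTGACC (estrogen response element, 0.0700%) matched in none of the 7.

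The 6 genes span 394 kb of chromosome 8 (GRCm38). Cd209a (ENSMUSG00000031494) lies at chr8:3743397-3748984, Cd209e (ENSMUSG00000040197) at chr8:3847965-3854309, Cd209d (ENSMUSG00000031495) at chr8:3871824-3878555 and Cd209b (ENSMUSG00000065987) at chr8:3917655-3926844, all on the minus strand. Cd209f (ENSMUSG00000051906) lies at chr8:4102787-4105835 on the minus strand and Cd209g (ENSMUSG00000079168) at chr8:4134098-4137707 on the plus strand, 28.3 kb apart with their starts facing. Nearly all counts of the 6 genes came from this facing pair.

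Cd209b and Cd209e had 0 counts in all 12 libraries, and so did Cd209c, a further Cd209 gene inside the span that is not among the 6. Cd209a had 1 count in OVX library 1 and 0 elsewhere. Cd209d had 2 counts in OVX library 2 and 0 elsewhere. All 4 undetected members stayed at or under the floor of 3 counts in every library, so no fold change is given for them, and only Cd209f and Cd209g passed the filter on low counts. In a bulk sample, fewer cells of a type and less RNA per cell cannot be told apart, and this holds for all values below.

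Cd209f had 1350, 379 and 463 counts in sham libraries 1 to 3 and 38, 55 and 41 counts in OVX libraries 1 to 3. As CPM after TMM scaling these were 35.3, 24.0 and 22.4 in sham and 1.16, 1.44 and 1.21 in OVX. Every sham library lay far above every OVX library, and sham library 1 was the highest. The log2 fold change, OVX over sham, was -4.52 (SE 0.27), a 23.0-fold lower level.

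Cd209g had 518, 287 and 384 counts in the sham libraries and 20, 22 and 26 in the OVX libraries. Its CPM were 13.6, 18.2 and 18.6 in sham and 0.609, 0.575 and 0.769 in OVX, again with no overlap, and here sham library 1 was the lowest of the sham libraries. The log2 fold change was -4.62 (SE 0.28), a 24.6-fold lower level. Among 16768 genes tested, Cd209g had the third and Cd209f the sixth most negative value, which is the pattern they were chosen for. Over all genes 8.46% were called (at least 2-fold and an adjusted p of at most 0.05 by edgeR's quasi-likelihood test), 903 higher and 516 lower in OVX (220 higher and 370 lower with GC and length trends removed), and nothing is read from this for the chosen pair.

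Fit as 1 feature, the summed pair stood at 46.0 ± 5.05 CPM in sham and 1.95 ± 0.136 CPM in OVX (SD, n = 2 and n = 3), with a log2 fold change of -4.56 (SE 0.21). The sum does not depend on how reads were split between the genes, but it misses reads that fit both genes if the counting dropped them. The pair was also lower relative to macrophage markers: per 1000 CPM of the 10 summed markers it stood at 0.832 and 0.768 CPM in the sham samples and at 0.0396, 0.0503 and 0.0494 CPM in the OVX samples. Lyz2 alone made up 88.1% to 91.1% of that sum. Per 1000 CPM of the other 9 markers the pair stood at 7.01 and 7.23 CPM in sham and at 0.425, 0.508 and 0.557 CPM in OVX samples, and per 1000 CPM of Adgre1 at 18.5 and 26.6 CPM in sham and 1.41, 2.21 and 3.24 CPM in OVX samples. GC content of the longest annotated transcript, of any type, is 50.8% for Cd209f and 52.8% for Cd209g. With the trends of the libraries on GC content and length removed, the log2 fold changes were -4.38 (SE 0.23) and -4.37 (SE 0.25).

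Library identifiers in the column names fall into different number series, in which OVX library 2 and sham library 2 stand apart from the others. Within that pair the log2 ratio, OVX over sham, was -4.06 for Cd209f and -4.98 for Cd209g, and among the other 4 libraries it was -4.61 and -4.54. One series holds 1 library of each group, and sham libraries 2 and 3, which were near-identical, fall in different series, so these values describe the libraries and are no test of the series.

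**Figure D2:**
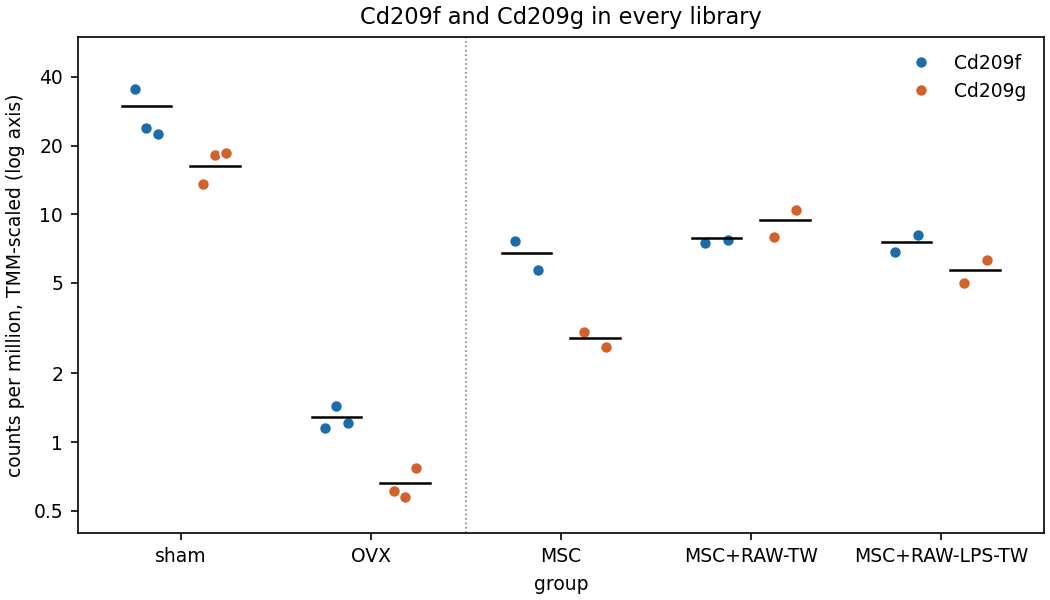
Level of Cd209f (blue) and Cd209g (orange) in each of the 12 libraries (points) by group, as TMM-scaled CPM on a log axis, with the sample mean as a black line and a dotted line between the separately scaled experiments. Sham libraries lie at 13.6 to 35.3 CPM and OVX libraries at 0.575 to 1.44 CPM, with the MSC groups between.

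Genes around the pair had smaller values. Within 300 kb on either side of the cluster, 22 other genes were tested and 0 were called by edgeR (4 at an unadjusted p under 0.05, and 0 by DESeq2), against 8.46% of all genes. Their log2 fold changes ran from -0.92 to 0.44, with a median of -0.33 against -0.01 over all genes. The value at the lower end belonged to Stxbp2, whose product takes part in granule release (-0.92, SE 0.20, edgeR adjusted p = 0.024), which passed the adjusted p but not the 2-fold limit. Next to the cluster on one side, Evi5l changed by -0.50 (SE 0.18, adjusted p = 0.11), and 4932443L11Rik, which overlaps Evi5l, had at most 13 counts in any library and was not tested. On the other side Gm23886 had at most 4 counts and Clec4g, a liver and lymph node lectin gene, had 0. Of the 11 other annotated genes inside the span, Gm7407 (0.32, SE 0.92) and Gm16589 (0.44, SE 0.80) were the ones tested in BMMs. Gm16589 had at most 131 counts in a library, and its error was wide.

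**Figure D3:**
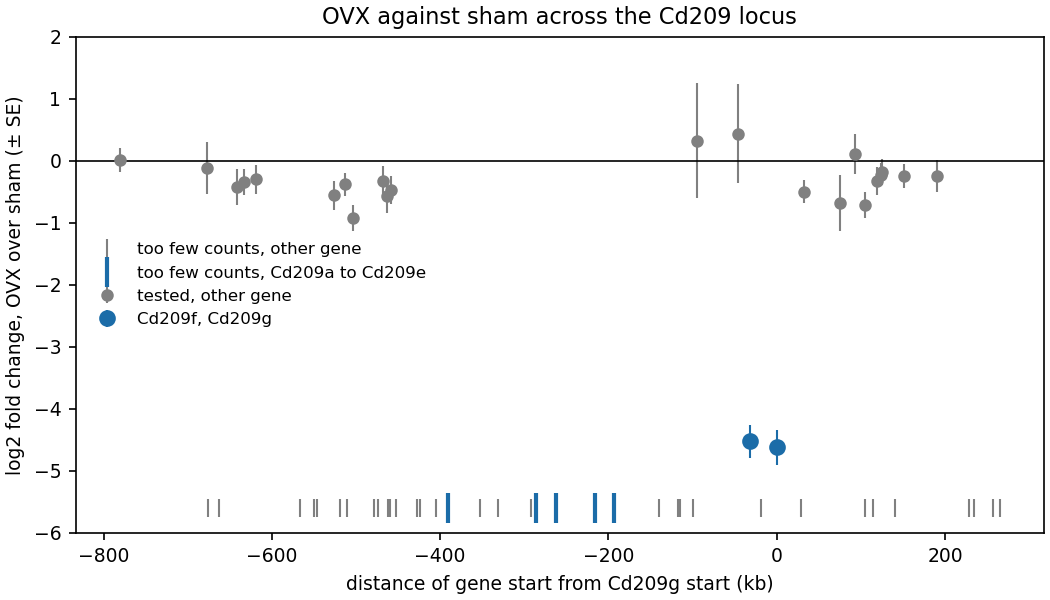
Log2 fold change, OVX over sham, with its SE, for genes around the cluster against the distance of the gene's start from that of Cd209g in kilobases, with ticks at the bottom for genes with too few counts. Cd209f and Cd209g lie near -4.5 while the 22 other tested genes lie between -0.92 and 0.44.

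The genes nearest to the pair in profile over the 5 BMM samples were found by the root mean square difference of log2 CPM, each gene centred on its own mean, among all genes tested. Cd209g and Cd209f were each other's second nearest, at 0.39. Nearest to Cd209g was Slc13a3, a sodium-coupled dicarboxylate transporter (0.29), and after Cd209f came Mmp3, the matrix protease stromelysin (0.39), Nrxn2, a neurexin (0.46), and Cck, the peptide cholecystokinin (0.50). Nearest to Cd209f was Gm38383 (0.34), followed after Cd209g by Mmp3 (0.39), Cck (0.45) and Slc13a3 (0.45). None of these lies on chromosome 8. Slc13a3 stood at 973 and 1390 CPM in sham and at 77.0, 71.2 and 77.5 CPM in OVX samples, a log2 fold change of -3.97 (SE 0.21). Mmp3 stood at 116 and 115 CPM in sham and at 7.77, 8.21 and 9.08 CPM in OVX samples. These genes were picked for likeness in the same samples, so their values there describe them. In the MSC experiment they did not move alike: with LPS-treated RAW264.7 cells the log2 fold change of Mmp3 was 6.69 (SE 0.19, edgeR adjusted p = 2.01e-12), that of Nrxn2 4.47 (SE 0.41, adjusted p = 7.17e-07) and that of Gm38383 2.48 (SE 0.29, adjusted p = 1.20e-05). Slc13a3 was at 0.36 (SE 0.16, adjusted p = 0.12) and was not called, and Cck had too few counts there to be tested.

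**Figure D4:**
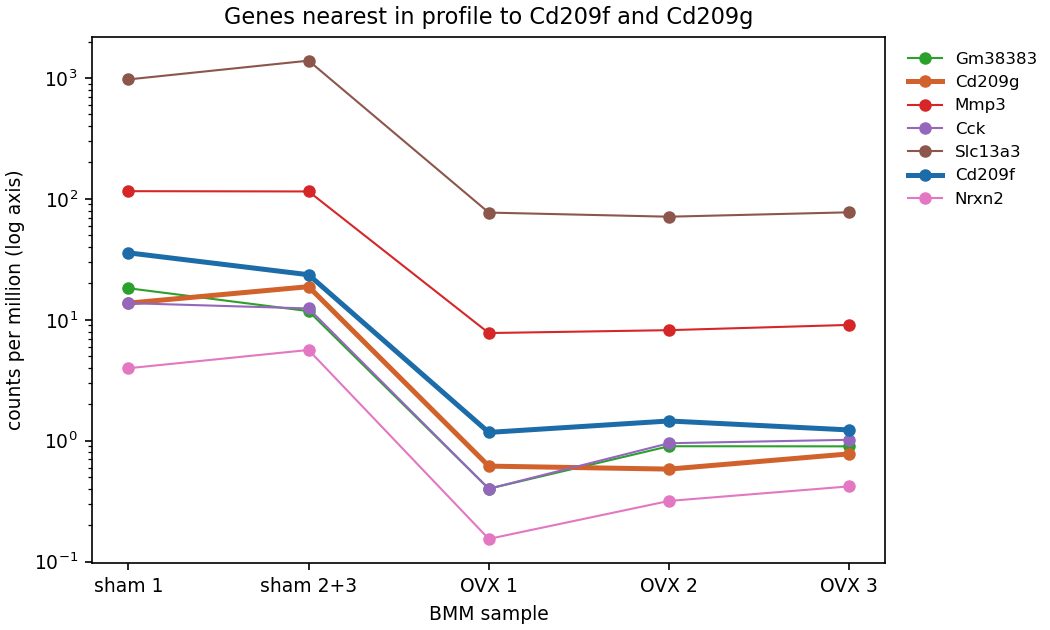
Level of Cd209f and Cd209g (thick lines) and of the 5 other genes nearest to either in profile, in CPM on a log axis, over the 5 BMM samples (sham libraries 2 and 3 summed). All 7 drop between the sham and the OVX samples, and Slc13a3 is at the highest level with 973 and 1390 CPM in sham.

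In the MSC experiment, which did not choose the members, both genes were detected in every library. Cd209f had 375 and 193 counts in the MSC libraries, 306 and 267 in MSC+RAW-TW, and 228 and 254 in MSC+RAW-LPS-TW. The CPM were 7.65 and 5.67, then 7.48 and 7.70, then 6.84 and 8.08. The 3 groups overlapped. From MSC to MSC+RAW-LPS-TW the log2 fold change was 0.16 (SE 0.25, edgeR adjusted p = 0.74), with an approximate 95% interval (1.96 SE) from -0.33 to 0.65, and no change within that interval could be told from none.

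Cd209g had 149 and 89 counts in the MSC libraries, 326 and 360 in MSC+RAW-TW, and 166 and 197 in MSC+RAW-LPS-TW. The CPM were 3.04 and 2.62, then 7.96 and 10.4, then 4.98 and 6.26. From MSC to MSC+RAW-LPS-TW it was higher by a log2 fold change of 0.99 (SE 0.28, adjusted p = 0.018), a 1.98-fold difference that passed the adjusted p but fell short of the 2-fold limit. It was past both limits without MSC+RAW-LPS-TW replicate 2 (1.12, SE 0.29, adjusted p = 0.0078), and missed the adjusted p without MSC replicate 1 (1.10, adjusted p = 0.054), MSC replicate 2 (0.89, adjusted p = 0.13) or MSC+RAW-LPS-TW replicate 3 (0.82, adjusted p = 0.061). So 0 of the 2 tested members were called, against 10.9% of the 20499 genes tested; by DESeq2 0 were called too, and 1 of 2, Cd209g, had an unadjusted p under 0.05.

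Summed to 1 feature, the pair stood at 9.64 ± 1.73 CPM in MSC and at 13.3 ± 1.81 CPM in MSC+RAW-LPS-TW samples (SD, n = 2 each). The log2 difference, 0.46 (SE 0.22, edgeR adjusted p = 0.16), did not pass the test. In MSC+RAW-TW it was at 17.2 CPM in 1 sample. Macrophage markers moved in the same comparison, with 1 called higher and 3 lower of 10: Adgre1, the F4/80 antigen, was higher by 1.42 (SE 0.16) and Cd68, Aif1 and Lyz2, the most abundant of them, were lower by log2 fold changes of -2.82, -1.24 and -1.18. Per 1000 CPM of the summed markers the pair stood at 0.416 and 0.321 CPM in MSC, 0.503 in MSC+RAW-TW and 0.913 and 1.03 in MSC+RAW-LPS-TW samples. Lyz2 was 70.7% to 84.2% of the sum. Without Lyz2 the direction was the same, with values per 1000 CPM of the other 9 markers of 2.62 and 2.04 CPM in MSC and 3.12 and 3.58 CPM in MSC+RAW-LPS-TW samples. Per 1000 CPM of Adgre1 alone the direction turned. There the pair stood at 20.9 and 14.2 CPM in MSC and was lower, at 7.70 and 10.2 CPM, in MSC+RAW-LPS-TW samples. The direction therefore rests on the markers chosen. Of the other marker lists, with 5.85% of all genes called higher and 5.09% lower, 2 of 7 monocyte markers rose (Spn, 2.76; Vcan, 1.21) and 2 fell (Ccr2, -4.25; F13a1, -4.0). Of 10 neutrophil and granulocyte precursor markers 3 had enough counts to be tested, and 2 of these rose (Camp, 5.81; S100a8, 5.0). Of 12 stromal markers 2 rose (Lum, 5.87; Dcn, 4.68) and 10 were not called, among them Cxcl12 (-0.81), with a list median of 0.17. Of 3 tested erythroid markers 1 rose (Hba-a1, 2.83), and of 6 endothelial markers 1 fell (Vwf, -2.43). B cell, T cell and plasmacytoid dendritic cell markers had 0 calls by edgeR and DESeq2, with 1, 0 and 2 at an unadjusted p under 0.05. The part of these shifts in the level of Cd209g was not tested. With the identifier suffix of the columns as a block and all 6 libraries apart, Cd209g was at 0.97 (SE 0.25, edgeR adjusted p = 0.0081) and Cd209f at 0.17 (SE 0.22, adjusted p = 0.65).

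The share of the pair's counts that went to Cd209f differed between samples. It was 71.6% (95% exact binomial interval 67.5 to 75.4) and 68.4% (62.7 to 73.8) in the MSC samples, 57.9% (52.8 to 62.8) and 56.3% (51.6 to 61.0) in MSC+RAW-LPS-TW, and 45.5% (42.7 to 48.3) in the 1 MSC+RAW-TW sample. The intervals cover counting error only, and paired reads counted singly would make them too narrow. In BMMs the share was 72.3% and 55.7% in the sham samples and 65.5%, 71.4% and 61.2% in the OVX samples, so the sham samples lay on either side of all 3 OVX values. With 2 samples against 2, an exact permutation test cannot go below p = 0.33, and the difference in share between MSC groups was not tested.

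**Figure D5:**
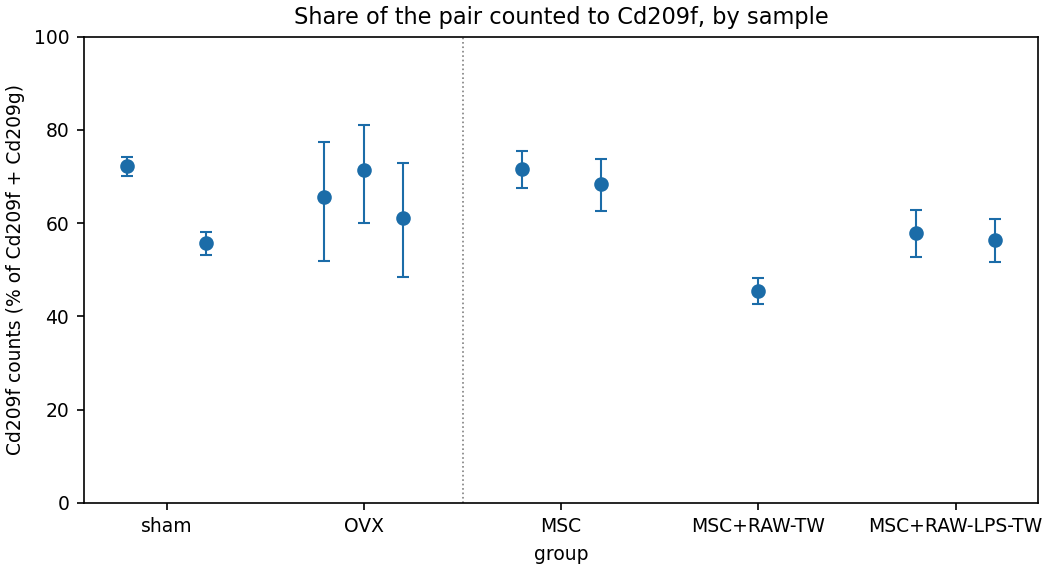
Percent of the counts of Cd209f and Cd209g together that went to Cd209f, per sample (points) with 95% exact binomial intervals (bars), by group. MSC samples lie at 68.4% and 71.6%, MSC+RAW-LPS-TW samples at 56.3% and 57.9%, MSC+RAW-TW at 45.5%, and the sham samples at 55.7% and 72.3%.

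Over all 5 groups the order of Cd209f levels was sham (29.7 ± 8.63 CPM), MSC+RAW-TW (7.85), MSC+RAW-LPS-TW (7.58 ± 0.885), MSC (6.77 ± 1.43) and OVX (1.29 ± 0.151), with the middle 3 within each other's spread. With 1 scaling over all 12 libraries the levels were 31.7, 7.07, 7.12, 6.44 and 1.38 CPM in that order of groups, which swaps the transwell groups. For Cd209g the order was sham (16.3 ± 3.58), MSC+RAW-TW (9.40), MSC+RAW-LPS-TW (5.71 ± 0.920), MSC (2.87 ± 0.306) and OVX (0.659 ± 0.105). With 1 scaling it was the same order, at 17.3, 8.46, 5.36, 2.73 and 0.706 CPM. OVX macrophages held the lowest level of both genes under either scaling, below the MSC cultures. Per kilobase of counted exon, the level in sham was 14.9 CPM for Cd209f and 4.51 CPM for Cd209g, but the 3610 counted bases of Cd209g include a whole retained-intron transcript while the protein-coding one has 1169, so the order of the genes per length is not settled by these counts.

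Other C-type lectin receptors moved in both directions in OVX macrophages. Of 18 tested, 4 were called higher and 3 lower, against 5.39% and 3.08% of all genes, with a median log2 fold change of -0.32 against -0.01 over all genes. Mrc1, the mannose receptor, rose from 51.3 to 206 CPM (2.0, SE 0.22, edgeR adjusted p = 0.0045), opposite in direction to the Cd209 pair. Clec7a, the beta-glucan receptor Dectin (1.70), and Clec5a (1.46) also rose, and Clec4b1 (-1.17), Clec4a1 (-1.09) and Clec4a2 (-1.08) fell. Without OVX replicate 2 the count over this list was 1, and without OVX replicate 1 it was 4. In MSC+RAW-LPS-TW against MSC, 2 of 19 rose, Clec4e (2.95) and Cd302 (1.17), and 6 fell, led by Mrc1 (-7.20), Mgl2 (-5.25) and Clec10a (-4.37), against 5.85% of all genes higher and 5.09% lower. The median was -0.46 against -0.01 over all genes.

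Of 16 tested DC-SIGN signaling genes 5 fell, against 3.08% of all genes, with a median log2 fold change of -0.50 against -0.01 over all genes. The 3 largest falls were in Bcl3, a partner of NF-kappaB (-1.82, SE 0.19, edgeR adjusted p = 0.0040), Icam1, an adhesion molecule (-1.43), and Syk, a kinase that acts below many lectin receptors (-1.27). Il10, the anti-inflammatory cytokine that DC-SIGN signals raise, was also called (-1.20, SE 0.17) and fell from 38.8 to 17.0 CPM. Without OVX replicate 2 the count was 1, and without sham replicates 2 and 3 it was 3. In MSC+RAW-LPS-TW against MSC, 5 of 17 rose, against 5.85% of all genes, led by Il10 (3.51), Bcl3 (1.72) and Nfkb1 (1.68), and Lsp1 fell (-2.22), with a median of 0.70 against -0.01 over all genes.

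Of the marginal zone and marrow macrophage markers, all 11 were tested and 5 were called lower in OVX, against 3.08% of all genes (3 without OVX replicate 2), with a median of -0.87 against -0.01 over all genes. Marco, a scavenger receptor of marginal zone macrophages, fell by 3.26 on the log2 scale (SE 0.21, edgeR adjusted p = 0.00052). It stood at 814 ± 179 CPM (SD, n = 2) in sham and at 85.1 ± 8.63 CPM (SD, n = 3) in OVX. Spic, a transcription factor of red pulp macrophages, fell by 1.88 and Nr1h3, the nuclear receptor LXR alpha, by 1.68 on the log2 scale, and Adgre1, the most abundant gene of the list in sham (2137 CPM), by 1.19. The same list split in the MSC experiment: Marco (1.91), Vcam1 (1.51) and Nr1h3 (1.47) led 5 genes that were higher with LPS-treated RAW264.7 cells, and Slc40a1 (-5.02) and Cd5l (-4.86) were lower, against 5.85% and 5.09% of all genes.

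The other lists gave a varied picture, to be read against 8.46% of all genes called in OVX (5.39% higher, 3.08% lower) and 10.9% in the MSC comparison (5.85% higher, 5.09% lower). Of 14 tested resident LYVE1-type macrophage markers 1 rose (Mrc1) and 1 fell (Cbr2, -1.42) in OVX (4 were called without sham replicate 1), while 11 of 15 fell with LPS-treated RAW264.7 cells, led by Vsig4 (listed at 0 counts in that group), Mrc1 (-7.20) and Ccl24 (-4.12). Of 13 tested IL-4 and STAT6 response genes, which in macrophages often accompany lectin receptors, Mrc1 and Egr2 (1.23) rose and Socs1 (-1.22) and Il4ra (-1.20) fell in OVX, and 4 rose and 5 fell in the MSC comparison, with Mgl2 at -5.25. The counts in OVX were 2 with GC and length trends removed or without OVX replicate 1, and 1 without OVX replicate 2. Of 12 tested dendritic cell markers 2 fell in OVX, Batf3 (-2.35) and Xcr1 (-1.52), and 1 was called without each OVX sample in turn. The other 10 were not called, and 5 of the 12 had positive values. The list median was -0.32 against -0.01 over all genes. Their summed level was 296 to 323 CPM in sham and 218 to 251 CPM in OVX samples, with Flt3 at 0 in OVX. Much of the sum was Cd74, the most abundant, at 209 CPM in sham and 154 CPM in OVX (-0.44, SE 0.18, not called). With LPS-treated RAW264.7 cells 1 dendritic marker rose, Ccl17 (3.13), and 4 fell, led by Mgl2 and Clec10a (-4.37).

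Markers of macrophages and of other cells in BMMs are given here beside the fall of the pair, with 5.39% of all genes called higher and 3.08% lower. Of 10 macrophage markers 3 fell in OVX (Aif1, -1.31; Adgre1, -1.19; Fcgr1, -1.12), and 1 without OVX replicate 2; Lyz2, the most abundant, went from 50934 to 38170 CPM (-0.42, SE 0.15) and did not pass the test. Of 7 monocyte markers Ccr2 (2.45) and Vcan (1.72) rose and Spn (-1.47), Ly6c2 (-1.19) and Ly6a (-1.11) fell, and 3 were called without OVX replicate 2. Neutrophil and granulocyte precursor markers were not called in OVX by edgeR (0 of 10, with 5 at an unadjusted p under 0.05 and 1 called by DESeq2), with sums of 824 to 960 CPM in sham and 1217 to 1351 CPM in OVX samples, the abundant gene being S100a9. Of 7 tested B cell markers 2 fell, Cd79b (-1.44) among them, and 5 were not called, with Ms4a1 at 1.04 and Ebf1 at 0.53. They summed to 156 to 164 CPM in sham and 92.9 to 122 CPM in OVX samples, led by Ighm. The count of called B cell markers was 1 without each sample in turn and with GC and length trends removed. T cell markers summed to 5.15 to 6.58 and 3.70 to 5.30 CPM, plasmacytoid dendritic cell markers to 69.3 to 89.9 and 101 to 169 CPM (nearly all Tcf4), erythroid markers to 6.33 to 7.05 and 4.46 to 6.17 CPM and endothelial markers to 19.0 to 23.3 and 19.7 to 23.1 CPM. By edgeR and by DESeq2, 0 genes of these 4 lists and of the stromal markers were called in OVX. At an unadjusted p under 0.05 there were 4 stromal, 1 plasmacytoid and 0 T cell, erythroid and endothelial markers. The part of these shifts in the fall of the Cd209 pair was not tested.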

How the data were processed

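Poly(A) RNA libraries were made with a directional kit and sequenced as paired 150-base reads. Per the labels and methods, the authors trimmed with Trim Galore 0.6.7, aligned with HISAT2 2.1.0 to GRCm38 and counted reads per gene with featureCounts 2.0.1; the deposited values are raw counts. Strand setting, the counting of pairs and the handling of reads that fit several places are not given in the sources used here. Among counts of 1 to 20, 60.0% to 71.4% were even.

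Genes were matched by Ensembl identifier (55141 of 55487 had a name in the GRCm38 tables). The members and lists were chosen with earlier results of these data known. Libraries of 1 group whose difference did not grow with counts were summed. edgeR 4.0.16 (R 4.3.3) was run with TMM scaling, default low-count filter and the quasi-likelihood test over all genes, with Benjamini-Hochberg adjustment; genes were called at 2-fold and an adjusted p of at most 0.05. DESeq2 1.42.0, other scaling, no filter, all libraries apart, blocks, GC and length trends and each sample left out were alternatives; the identifier block, the summed pair, the levels of the pair per marker and the list counts without a sample or with trends removed were added after the data were seen. The fits were also run on simulated counts with the same spread for all genes. Changes were set only in well-counted genes, so this run does not cover low counts or near-identical libraries. Sequences came from GENCODE M21 and RefSeq (GRCm38.p6, all 7 Cd209 promoters matched). Named genes were the members, Cd209c, neighbours of the cluster, the 5 nearest in profile to each detected member (prior count 2), and per list up to 3 called genes per direction and the most abundant marker. Il10 and Stxbp2 were named after their values were seen. Protein sequences were not used here, and the results of some genes and 1 motif are not reported here.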

Additional observations from a re-analysis of the deposited data

How the results depend on the processing

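The fall of Cd209f and Cd209g in OVX held its direction under all alternatives run. Without each sample in turn the log2 fold change ranged from -4.80 to -4.19 for Cd209f and from -4.82 to -4.38 for Cd209g. Under the other alternatives it ranged from -4.54 to -4.38 for Cd209f and from -4.68 to -4.37 for Cd209g, whose value nearest 0 was with GC and length trends removed. The count of genes called between OVX and sham, 1419, depended on the samples: leaving 1 out gave 309 (without OVX replicate 2) to 2390 (without sham replicate 1). With GC and length trends removed it was 590, and the cause was not tested. Same-numbered BMM libraries deviated from their group means with correlations of 0.36, -0.01 and 0.31, which does not settle whether the numbers pair the samples. With all 6 libraries apart the count was 1818, and with the replicate block added to that it was 2117. With that block the pair stood at -4.39 (Cd209f) and -4.67 (Cd209g). In the MSC experiment MSC columns are numbered 1 and 2 and MSC+RAW-LPS-TW columns 2 and 3, which share 1 number, so libraries were blocked by the identifier suffix of the columns instead. With all 6 libraries apart, that block gave 2383 called genes, against 2412 without it, and changed no call of the pair.

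For MSC+RAW-LPS-TW against MSC, the count of 2243 ranged from 1925 to 2781 without each sample. Cd209f reversed to -0.0345 without MSC replicate 2 (range to 0.40), and passed the test under no alternative. Cd209g ranged from 0.82 to 1.12 without each sample. Leaving out 1 sample of a 2-sample group assumes that the lone sample varies like the others. With all 6 libraries apart, 2 neutrophil and granulocyte precursor markers and 1 stromal marker were called in OVX, against 0 and 0; 1 neutrophil marker was also called without sham replicate 1, and 1 stromal marker with GC and length trends removed. Depth limits Cd209a, Cd209b, Cd209d and Cd209e, for which a level under the floor of 3 counts cannot be told from none.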
